A study of Mus musculus with 10 samples.

Results

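Serine and folate one-carbon metabolism was followed in mouse bone marrow through 9 enzyme genes, taken by symbol as the members of the pathway. The rule uses no measured value, though the genes were chosen with earlier results of these data known. They were Phgdh, Psat1, Psph, Shmt1, Shmt2, Mthfd1, Mthfd2, Mthfd1l and Aldh1l2, and all 9 were among the 55367 genes of the deposited table. The study compared marrow RNA of mice that drank regular water with that of mice whose water held 1% α-ketoglutarate (α-KG). Each group held 5 libraries of total RNA from bone marrow cells labelled BMMC, which are numbered here 1 to 5 within water and within α-KG in accession order. These numbers only name a library and pair nothing across the groups. The sources used here state no strain, genotype, sex, age or duration of treatment. Whether every library stands for a separate mouse is not stated either, and p-values therefore reflect only the scatter of these libraries, which may be technical. Libraries of a group differed beyond counting noise (chi-square per degree of freedom 34.1 to 440 over 20 pairs).

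Cells make serine from the glycolytic intermediate 3-phosphoglycerate through the enzymes encoded by Phgdh, Psat1 and Psph. The Psat1 enzyme moves an amino group from glutamate and releases α-KG, the compound that was given to the mice. Serine then passes a carbon unit to tetrahydrofolate, in the cytosol through Shmt1 and in mitochondria through Shmt2. The bound unit is handled further by Mthfd1 in the cytosol and by Mthfd2, Mthfd1l and Aldh1l2 in mitochondria. These folate-bound units feed the synthesis of purines, thymidylate and methionine, for which dividing marrow cells have a high demand.

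The promoter windows of 4 of the genes are shown because the results turn on a pair that varied together between libraries (Shmt2 and Mthfd2), a gene whose levels tended the other way (Shmt1) and the entry step of serine synthesis (Phgdh). Each window runs from 250 bases before to 50 after a transcript start in RefSeq (build GRCm38.p6) and is written 5′ to 3′ on the strand of the gene. Capitals mark the letters of the searched motifs that were found, on either strand. The windows are chr10:127522395-127522694 for Shmt2, chr6:83317555-83317854 for Mthfd2, chr11:60811216-60811515 for Shmt1 and chr3:98339920-98340219 for Phgdh, all on the minus strand.
Shmt2: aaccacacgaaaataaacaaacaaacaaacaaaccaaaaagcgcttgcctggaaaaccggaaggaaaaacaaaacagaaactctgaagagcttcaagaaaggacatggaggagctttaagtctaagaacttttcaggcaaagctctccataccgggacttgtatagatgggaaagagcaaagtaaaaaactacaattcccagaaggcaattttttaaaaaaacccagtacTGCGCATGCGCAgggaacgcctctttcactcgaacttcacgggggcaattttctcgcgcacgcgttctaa
Mthfd2: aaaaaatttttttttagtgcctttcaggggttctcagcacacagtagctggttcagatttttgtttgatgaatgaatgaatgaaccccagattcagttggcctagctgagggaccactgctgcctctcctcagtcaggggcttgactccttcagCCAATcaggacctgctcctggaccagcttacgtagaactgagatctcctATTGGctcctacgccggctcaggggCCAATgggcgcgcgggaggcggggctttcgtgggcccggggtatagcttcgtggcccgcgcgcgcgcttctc
Shmt1: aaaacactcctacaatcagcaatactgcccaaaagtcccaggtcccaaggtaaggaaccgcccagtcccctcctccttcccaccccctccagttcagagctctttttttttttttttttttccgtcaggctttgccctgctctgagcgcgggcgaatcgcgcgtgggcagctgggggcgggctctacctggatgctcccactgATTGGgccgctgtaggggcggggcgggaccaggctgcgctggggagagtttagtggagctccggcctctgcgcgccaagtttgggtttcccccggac
Phgdh: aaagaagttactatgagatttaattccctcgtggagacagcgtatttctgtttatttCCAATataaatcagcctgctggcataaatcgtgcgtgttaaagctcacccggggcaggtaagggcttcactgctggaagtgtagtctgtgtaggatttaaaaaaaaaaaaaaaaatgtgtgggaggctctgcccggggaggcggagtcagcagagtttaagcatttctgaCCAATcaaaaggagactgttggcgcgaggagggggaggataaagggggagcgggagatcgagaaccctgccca

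Windows were found for 8 of the 9 genes, all but Aldh1l2, with 2 for Psat1. The Shmt2 window held TGCGCA, part of the site of the factor NRF1, in adjoining copies 20 and 14 bases before the start. That sequence was in 7.76% of all 32851 windows and, among the 8 genes, also in Psph. The CCAAT sequence was in the windows of 6 genes and in 37.4% of all windows, with 3 matches for Mthfd2, 2 for Phgdh, 1 for Shmt1 and 0 for Shmt2. The E2F-like sequence GCGGGAA was found in Mthfd1 alone of the 8 genes (4.6% of all windows). None of the 8 held the E-box CACGTG (7.15% of all windows), the GATA sequence AGATAA (11.2%) or TGATGNAA, a form of the ATF4 and C/EBP composite site (3.97%). Both strands were searched, TGCGCA and CACGTG read alike on both, and no matches of different motifs overlapped in these windows. The GATA, CCAAT and TGCGCA sequences were added after the values were seen. A match is a string of letters and not a bound site, and a missing one says only that those letters are not in these 300 bases.

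Library totals ran from 14291364 to 22490118 estimated counts. Values below are TMM-scaled CPM (counts set to a common library size), given per library, and with their SD over 5 libraries. The signal recognition particle RNAs Rn7s1 and Rn7s2 took 7.56% to 24.2% of the counts in water and 23.97% to 31.0% in α-KG. Transcripts of Xist, from an inactive X chromosome, stood at 258 to 785 CPM and the Y-linked Ddx3y at 13.5 to 28.04 CPM, together in every library, so what animal or mixture a library stands for is not known here. Markers of the marrow lineages were present throughout, with summed levels of 23064 to 83199 CPM for 14 erythroid, 3480 to 7095 CPM for 12 neutrophil and 94.99 to 515 CPM for 12 B cell genes. In bulk RNA, fewer cells of a type and less RNA per cell cannot be told apart.

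None of the enzyme genes was called different between water and α-KG. Of the 8 genes that passed the filter on low counts, 0 rose and 0 fell at an adjusted p under 0.05 (edgeR quasi-likelihood test, Benjamini-Hochberg adjustment over 15126 genes), where 2.73% of all genes tested were called. At an unadjusted p under 0.05 the count was also 0, where 27.8% of all genes tested were. DESeq2 and limma voom called 0 of the 8, where they called 10.4% and 1.77% of all genes. The libraries of the groups overlapped for all 8, where 5.65% of all genes tested had groups that did not overlap. The median log2 fold change (α-KG minus water) of the 8 was -0.12, beside 0.02 for all genes tested. The estimates differed in precision, so the intervals below say how large a difference each gene could still hold.

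**Figure D1:**
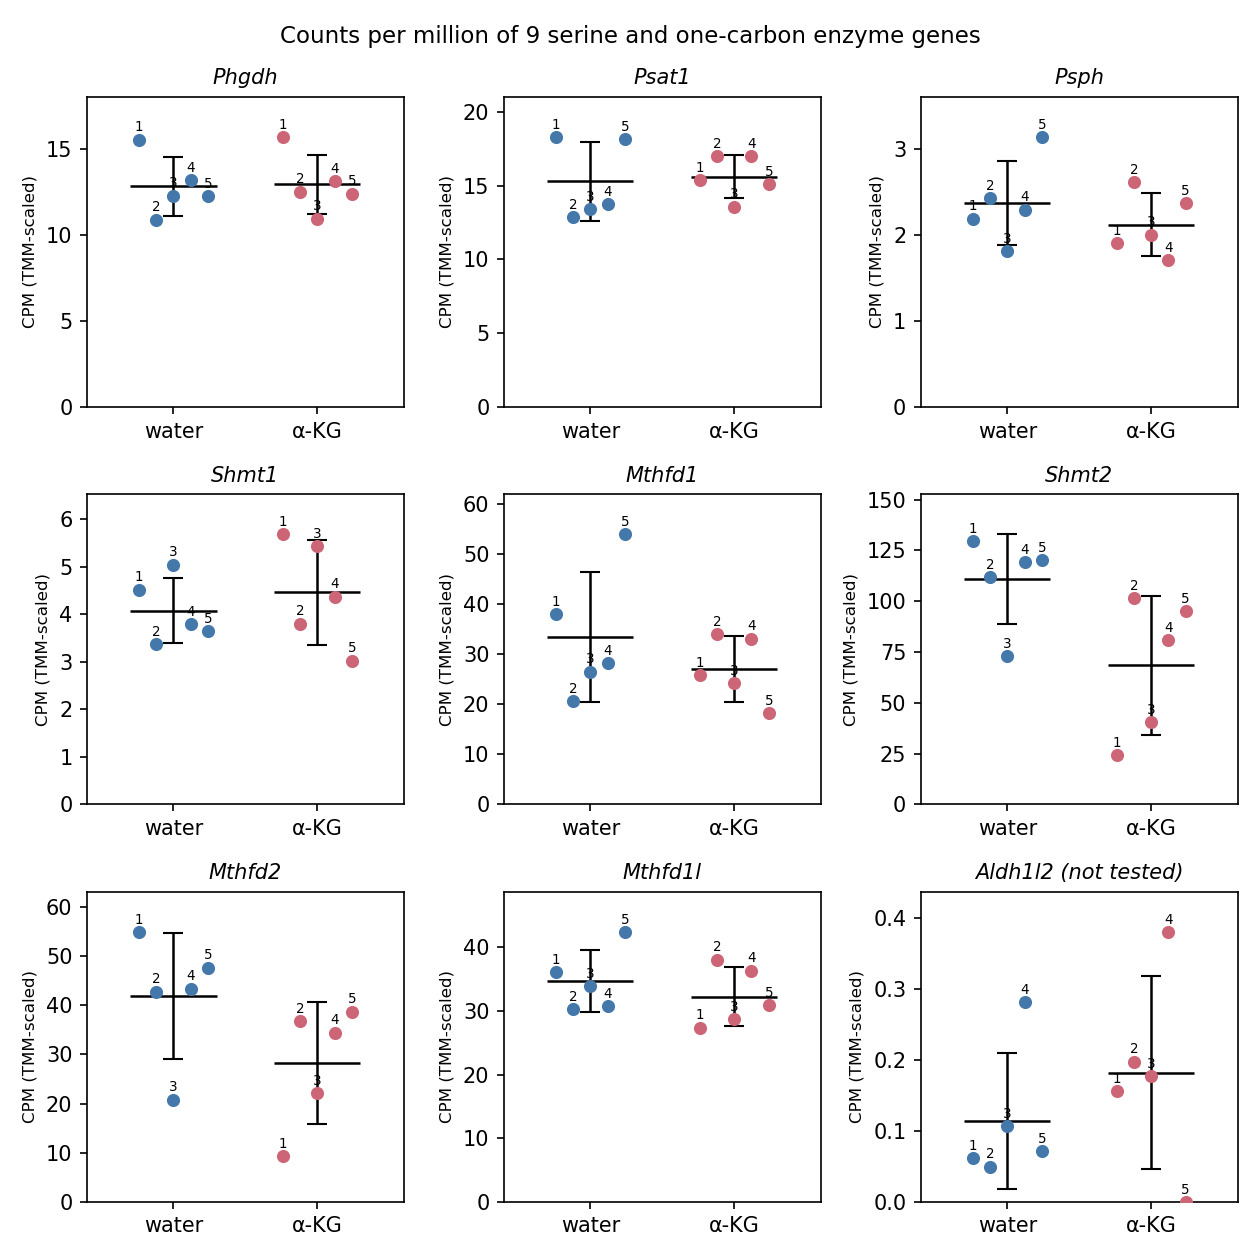
TMM-scaled CPM (vertical axes, each from 0) of the 9 genes in the water and α-KG groups, 1 point per library with its number, mean line and SD bar (n = 5). Points of the groups overlap in every panel, and Shmt2 and Mthfd2 have their lowest values, 24.1 and 9.26 CPM, in α-KG 1.

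Among the serine synthesis genes, Phgdh and Psat1 had nearly the same mean levels with and without α-KG. Phgdh encodes phosphoglycerate dehydrogenase, the entry step of the pathway (chromosome 3, 98313170 to 98339990, minus strand, build GRCm38). It stood at 15.5, 10.9, 12.3, 13.2 and 12.2 CPM in water 1 to 5 and at 15.7, 12.5, 10.9, 13.1 and 12.4 CPM in α-KG 1 to 5. The values of the groups interleave, and the first library of each group holds its highest value. Means were 12.8 ± 1.72 CPM in water and 12.9 ± 1.74 with α-KG (SD, n = 5), with a log2 fold change of 0.01 ± 0.13 SE (95% interval -0.27 to 0.30, adjusted p = 0.960). The interval holds ratios of α-KG to water from 0.827 to 1.23.

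Psat1 encodes phosphoserine aminotransferase, the step that releases α-KG (chromosome 19, 15904678 to 15947337, minus strand). Its levels were 18.3, 12.9, 13.4, 13.7 and 18.2 CPM in water 1 to 5 and 15.4, 17.0, 13.6, 17.0 and 15.1 CPM in α-KG 1 to 5. All α-KG values lay between the lowest and the highest water value. The means were 15.3 ± 2.70 and 15.6 ± 1.44 CPM (SD, n = 5), a log2 fold change of 0.03 ± 0.13 SE (95% interval -0.26 to 0.32, adjusted p = 0.900), or ratios from 0.835 to 1.25. The sign of both genes depends on the setting, as given in the closing section.

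Psph encodes phosphoserine phosphatase, the last step to serine (chromosome 5, 129765558 to 129787449, minus strand). It was the scarcest of the 8 genes tested, at 2.19, 2.43, 1.81, 2.30 and 3.15 CPM in water 1 to 5 and 1.91, 2.62, 2.01, 1.71 and 2.37 CPM in α-KG 1 to 5. The highest value was in water 5 and the lowest in α-KG 4, with the rest mixed. The log2 fold change was -0.14 ± 0.20 SE (95% interval -0.58 to 0.29, adjusted p = 0.650). Its exons share 452 bases with Cct6a on the opposite strand, and the sources used here do not state whether counting used strand. Counts of Psph and of Phgdh were not whole numbers in any of the 10 libraries, as happens when reads are shared between features, so both carry some uncertainty from how reads were assigned. The pseudogene Phgdh-ps1 had at most 2 counts in a library.

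In the cytosolic arm, neither gene was called. Shmt1 encodes the cytosolic serine hydroxymethyltransferase (chromosome 11, 60788104 to 60811718, minus strand). It was at 4.51, 3.38, 5.04, 3.797 and 3.65 CPM in water 1 to 5 and at 5.68, 3.802, 5.43, 4.37 and 3.02 CPM in α-KG 1 to 5. The highest values lay in α-KG 1, α-KG 3 and water 3, and the lowest in α-KG 5. Its log2 fold change was 0.13 ± 0.20 SE (95% interval -0.29 to 0.56, adjusted p = 0.676). Shmt1 and Smcr8, on the opposite strand, share 184 bases of exon.

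Mthfd1 encodes the cytosolic C1-tetrahydrofolate synthase, an enzyme with several activities that interconverts the folate-bound units (chromosome 12, 76255298 to 76319803, plus strand). Levels were 38.0, 20.6, 26.5, 28.3 and 53.9 CPM in water 1 to 5 and 25.9, 34.0, 24.2, 33.1 and 18.3 CPM in α-KG 1 to 5. Water 5 stood above all other libraries. The means of 33.5 ± 13.03 and 27.1 ± 6.54 CPM (SD, n = 5) gave a log2 fold change of -0.30 ± 0.25 SE (95% interval -0.84 to 0.24, adjusted p = 0.430). Without water 5 it was -0.07 (adjusted p = 0.860), and over the 18 alternatives it ran from -0.44 to -0.07.

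The mitochondrial arm held the largest estimates, for Shmt2 and Mthfd2. Shmt2 encodes the mitochondrial serine hydroxymethyltransferase (chromosome 10, 127517123 to 127522444, minus strand). It stood at 129.7, 112, 73.1, 119 and 120.3 CPM in water 1 to 5 and at 24.1, 102, 40.6, 80.7 and 95.2 CPM in α-KG 1 to 5. Water 3 was the lowest water library and lay below 3 of the α-KG libraries, and α-KG 1 was the lowest of all. Means were 111 ± 22.03 CPM in water and 68.4 ± 34.3 with α-KG (SD, n = 5), a log2 fold change of -0.70 ± 0.34 SE (95% interval -1.44 to 0.05, unadjusted p = 0.0647, adjusted p = 0.203, edgeR). The interval holds ratios from 0.368 to 1.04, so a sizeable fall and no difference are both inside it. Over the 18 alternatives the log2 fold change ran from -0.89 to -0.49 and the adjusted p from 0.105 to 0.379.

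Mthfd2 encodes the mitochondrial methylenetetrahydrofolate dehydrogenase and cyclohydrolase (chromosome 6, 83305691 to 83325908, minus strand). It was at 54.9, 42.7, 20.8, 43.4 and 47.6 CPM in water 1 to 5 and at 9.26, 36.8, 22.1, 34.4 and 38.7 CPM in α-KG 1 to 5. The same libraries were low as for Shmt2, namely α-KG 1, water 3 and α-KG 3. The means were 41.9 ± 12.8 and 28.3 ± 12.4 CPM (SD, n = 5), with a log2 fold change of -0.57 ± 0.35 SE (95% interval -1.33 to 0.19, adjusted p = 0.294). Without α-KG 1 it was -0.35 (adjusted p = 0.408) and without water 3 it was -0.75 (adjusted p = 0.156).

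Mthfd1l encodes the mitochondrial formyltetrahydrofolate synthetase, which releases formate for the cytosol (chromosome 10, 3973118 to 4167081, plus strand). Levels were 36.1, 30.3, 33.9, 30.8 and 42.4 CPM in water 1 to 5 and 27.4, 38.1, 28.7, 36.3 and 30.9 CPM in α-KG 1 to 5. It varied far less than Shmt2 and Mthfd2, with a highest library 1.55-fold above the lowest, against 5.38-fold and 5.93-fold. The log2 fold change was -0.11 ± 0.13 SE (95% interval -0.39 to 0.18, adjusted p = 0.612).

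Aldh1l2, which encodes a mitochondrial formyltetrahydrofolate dehydrogenase (chromosome 10, 83487450 to 83534140, minus strand), was almost not detected. Its estimated counts ran from 0 to 6 per library, or 0 to 0.380 CPM, and it did not pass the filter on low counts. Both groups lay near the detection limit and no fold is given. Its exons share 1056 bases with D10Wsu102e on the opposite strand.

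**Figure D2:**
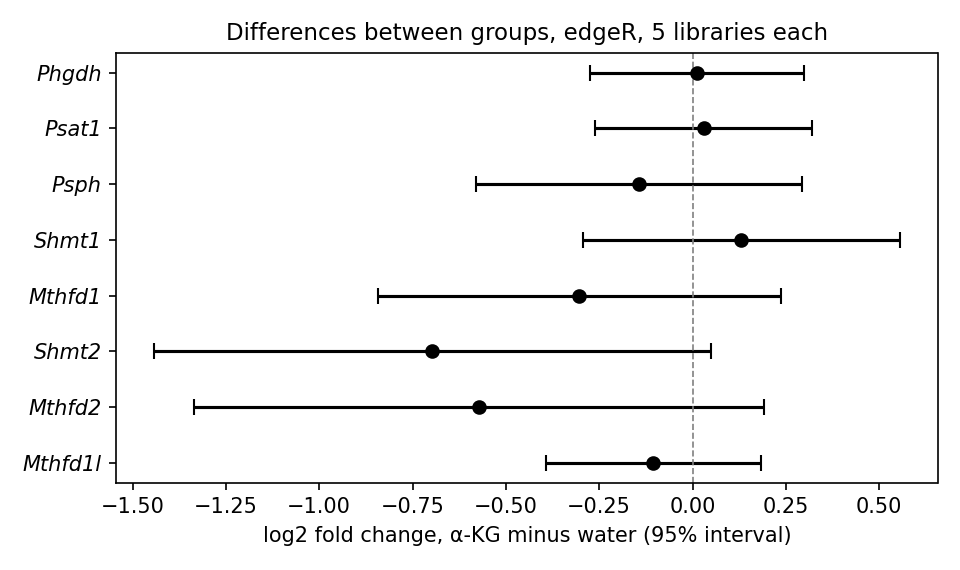
log2 fold change of α-KG against water (horizontal axis) with its 95% interval from edgeR for the 8 genes tested, 5 libraries per group. All intervals cross 0, and those of Phgdh, Psat1 and Mthfd1l are narrower than those of Shmt2 and Mthfd2.

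Per kilobase of annotated exon, the levels set Shmt2 above all other genes and Aldh1l2 below them. Over the 10 libraries Shmt2 came first at 28.8 ± 11.3 CPM per kb (SD, n = 10) and was above Mthfd2, at 10.1 ± 3.98, in 10 of 10 libraries. Mthfd2, Mthfd1l (7.55 ± 1.06), Mthfd1 (6.82 ± 2.31) and Phgdh (5.17 ± 0.657) followed, and each overlapped the next in range. Psat1 (3.63 ± 0.482), Shmt1 (1.10 ± 0.230) and Psph (0.520 ± 0.0990) each lay below the lowest value of the gene before. Aldh1l2 was last at 0.0197 ± 0.0155 CPM per kb. The length used joins all exons of the annotation, which can understate genes with long unused exons.

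**Figure D3:**
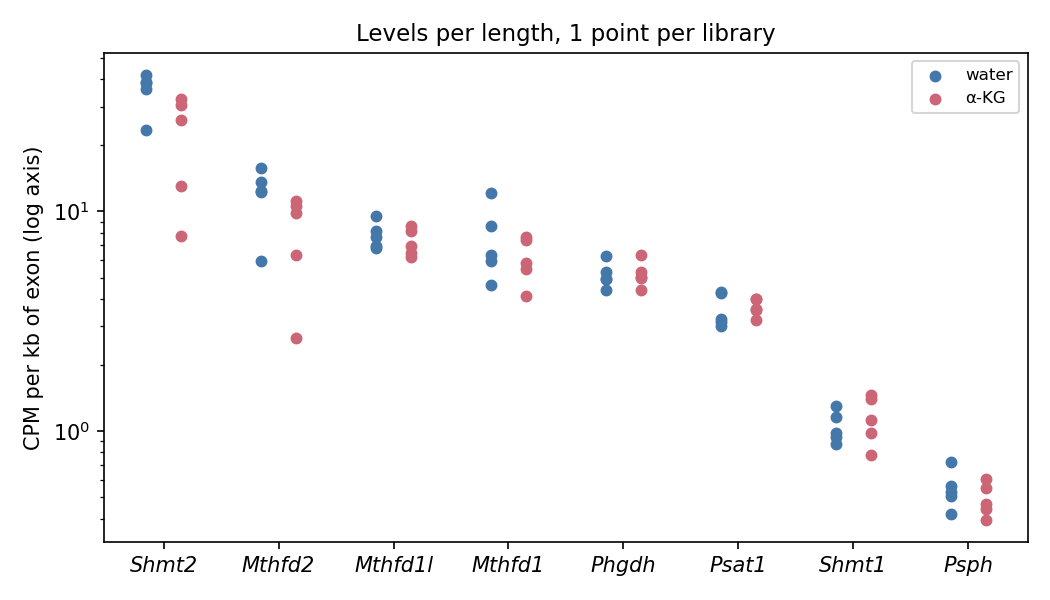
CPM per kilobase of exon (vertical log axis) of the 8 tested genes, ordered by mean, with 1 point per library in water and α-KG. Shmt2 has the highest mean, 28.8 CPM per kb, and Psph the lowest, 0.520 CPM per kb.

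The balance of the mitochondrial against the cytosolic enzyme was read within each library, where library scaling cancels. The log2 ratio of Shmt2 to Shmt1 counts was 4.84, 5.04, 3.85, 4.96 and 5.03 in water 1 to 5 and 2.08, 4.73, 2.89, 4.19 and 4.96 in α-KG 1 to 5. Shmt2 had the higher count in every library, by 4.24-fold to 32.9-fold. α-KG 1 and α-KG 3 held the lowest ratios, and the other 3 α-KG libraries lay within the range of water. The mean ratio was 0.97 lower in α-KG on the log2 scale, from 4.75 ± 0.51 in water to 3.77 ± 1.24 (SD, n = 5; two-sided exact permutation p = 0.175, 0.581 after adjustment over 6 ratios). Without α-KG 1 the difference was -0.55 (exact permutation test, adjusted p = 0.619 over 6 ratios).

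The other 5 ratios did not pass either. The log2 ratio of Mthfd2 to Mthfd1 was 0.33 ± 0.58 with water and -0.07 ± 0.92 with α-KG, and that of Mthfd2 to Mthfd1l was 0.21 ± 0.54 and -0.35 ± 0.72 (n = 5, SD; p = 0.452 and 0.206 in the exact permutation test). Without α-KG 1 these differences of -0.41 and -0.56 became -0.05 and -0.25. The ratio of Mthfd1l to Mthfd1 differed by 0.15 and that of Psph to Phgdh by -0.16 on the log2 scale (n = 5 per group; exact permutation p = 0.468 and 0.484). Psat1 to Phgdh was the steadiest ratio, at 0.25 ± 0.20 with water and 0.28 ± 0.18 with α-KG (n = 5, SD; p = 0.810 in the exact permutation test). Adjusted p was 0.581 to 0.810 over the 6 ratios, where 5 libraries against 5 allow no p under 0.00794.

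Between libraries, the levels of Shmt2 and Mthfd2 varied together. Their log2 CPM had a Pearson r of 0.95 and a Spearman rho of 0.98 over the 10 libraries (permutation p = 8.00e-05 and 3.00e-05, adjusted p = 0.00224 and 0.000840 over the 28 pairs of genes). With α-KG 1 and α-KG 3 left out, the libraries farthest from the median of Shmt2, r was 0.92, and with the group means removed it was 0.95. Mthfd1 and Mthfd1l had an r of 0.82 and a rho of 0.77 (permutation p = 0.00311 and 0.0125, adjusted p = 0.0435 and 0.118), which was 0.77 as r without water 5 and α-KG 5.

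Shmt1 went against Shmt2, with r of -0.75 and rho of -0.59 (permutation p = 0.00648 and 0.0810, adjusted p = 0.0568 and 0.252), a relation that does not pass over the 28 pairs. Without the libraries farthest from the median of Shmt1 its r was -0.78. Phgdh had r of -0.18 with Shmt2 and -0.23 with Mthfd2 (permutation p = 0.625 and 0.531, adjusted p = 0.700 and 0.620), and rho of 0.00606 and -0.0303 (permutation p = 1.00 and 0.946). Without water 1 and α-KG 1, the libraries farthest from the median of Phgdh, its r turned to 0.43 with Shmt2 and 0.27 with Mthfd2, so no direction is read. All genes of a library share its depth and cell makeup, so these relations are between libraries and not between enzymes in a cell.

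**Figure D4:**
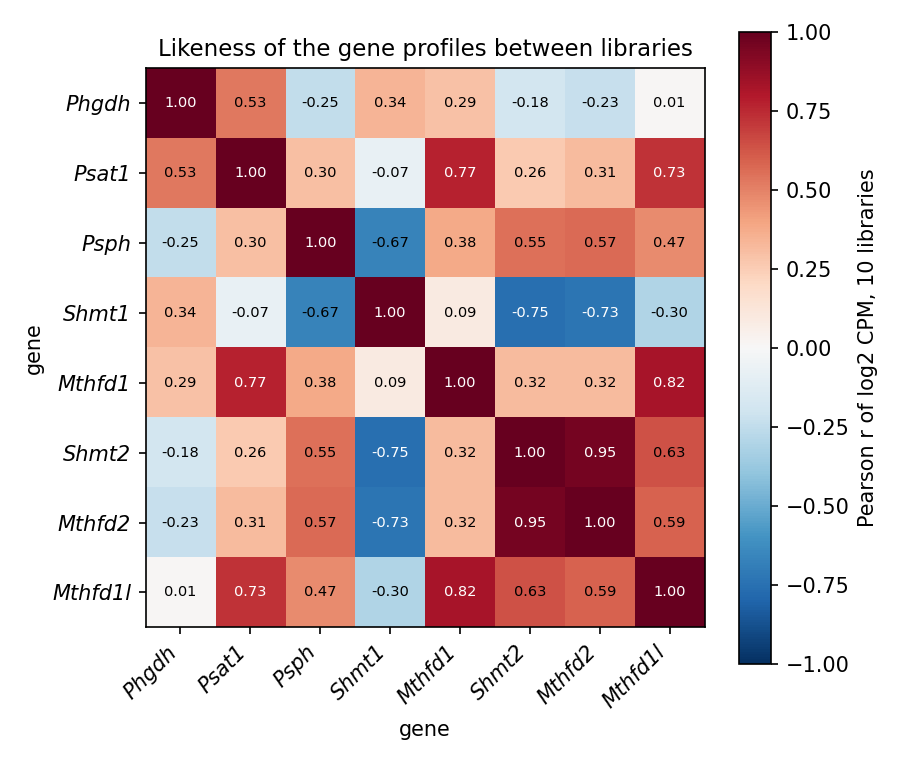
Pearson r of log2 CPM over 10 libraries for each pair of the 8 tested genes (both axes list the genes, colour and number give r). Shmt2 and Mthfd2 stand at 0.95, Mthfd1 and Mthfd1l at 0.82, and Shmt1 is at -0.75 and -0.73 with Shmt2 and Mthfd2.

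The genes most like each enzyme gene were sought among 8758 others whose average log2 CPM was 2 or more. The closest to Shmt2 were Icam4, which encodes a blood group antigen of red cells, and Hemgn, the gene of the erythroid nuclear protein hemogen (Pearson r = 0.997 and 0.996 over 10 libraries). Icam4 was at 23.2, 18.5, 8.17, 21.7 and 20.3 CPM in water 1 to 5 and at 1.71, 17.4, 3.72, 10.8 and 14.5 CPM in α-KG 1 to 5. Icam4 and Hemgn were lowest in α-KG 1, α-KG 3 and water 3, in the same order as Shmt2. Closest to Mthfd2 were Acp1 and Vps35 (r = 0.989 for each).

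The other enzyme genes had other closest genes. Phgdh was most like Cd79b, a subunit of the B cell receptor, and Cxxc5 (r = 0.908 and 0.856). Psat1 was most like the mitochondrial ribosomal protein gene Mrpl54 and Sgf29 (0.938 and 0.937), and Psph most like Tomm22, part of the mitochondrial import pore, and Srsf9 (0.924 and 0.912). Shmt1 went with Reps1 and Nf1 (0.967 and 0.947), Mthfd1 with Mta1 and Pdlim1 (0.956 for each), and Mthfd1l with Rad50 and Ranbp1 (0.952 and 0.947). These are the highest of 8758 values over 10 libraries and are given as a description.

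Some erythroid markers, Klf1 and Gata1 among them, were low in the libraries where Shmt2 and Mthfd2 were low. None of the 14 erythroid genes was called between the groups by edgeR, DESeq2 or limma voom, and their median log2 fold change was -0.64. Of the 14, 10 were below 0 and 4 above, where 7310 of all 15126 genes tested were below 0. At an unadjusted p under 0.05 (edgeR) the count was 1 of 14, where 27.8% of all genes tested passed. The list was split, after the values were seen, into 10 genes of the maturing erythroblast and 4 genes of haemoglobin production. The 10 are the genes with a log2 fold change below 0 and the 4 are those above it. Klf1, an erythroid transcription factor gene, was at 162, 209, 92.6, 192 and 167 CPM in water 1 to 5 and at 23.3, 157, 41.7, 100.4 and 175 CPM in α-KG 1 to 5. Gata1, another erythroid factor gene, was at 11.4 CPM in α-KG 1 and 22.9 in α-KG 3, and between 41.3 and 91.2 elsewhere. Both were low where Shmt2 was low.

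The haemoglobin genes shared this order only in part. The summed level of Hbb-bt, Hba-a1, Hba-a2 and Alas2 was highest in α-KG 3, at 77597 CPM, and lowest in water 3, at 16854 CPM, and α-KG 1 stood at 23694. Alas2 by itself was lowest in α-KG 1 (736 CPM) and water 3 (884 CPM) and highest in α-KG 3 (2694 CPM). The other 10 erythroid genes summed to 1115 CPM in α-KG 1 and 5603 in α-KG 3, and the remaining 8 libraries ran from 6008 to 12453. Slc4a1 weighed most in this sum, with means of 5766 ± 1580 CPM in water and 3825 ± 2133 with α-KG (SD, n = 5). No marker of this or any other cell type list was at 0 in all libraries. The part of the erythroid markers in the spread of Shmt2 and Mthfd2 was not tested.

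**Figure D5:**
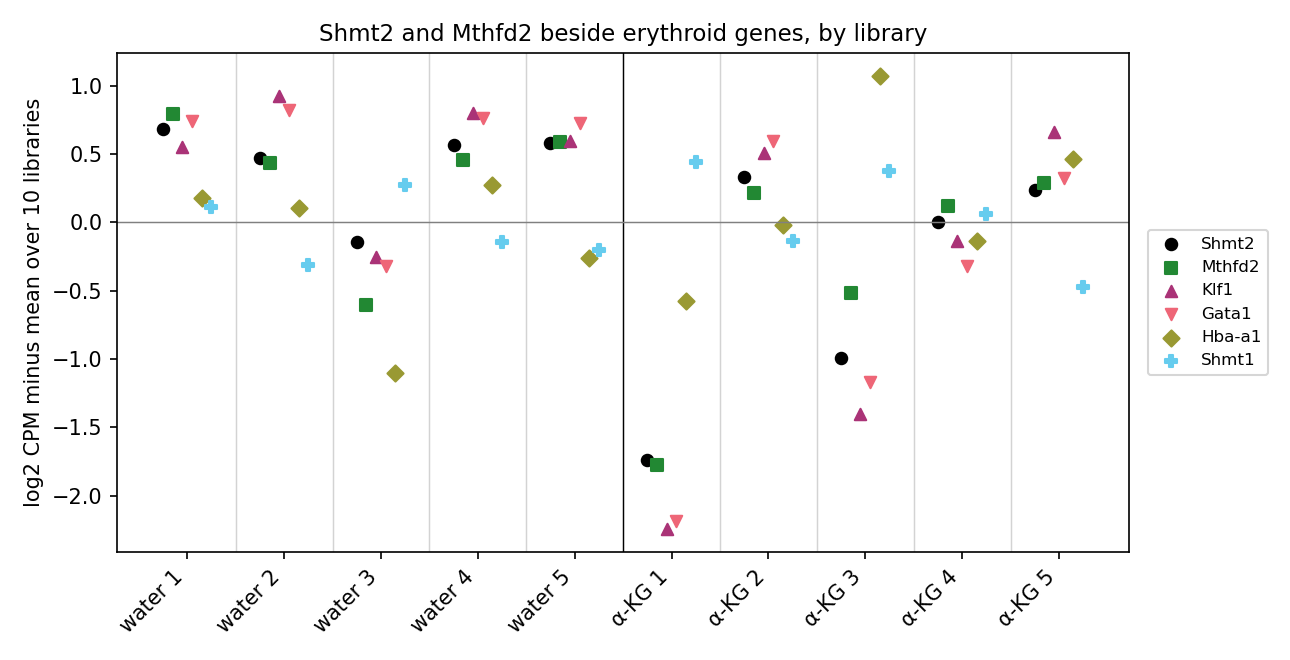
log2 CPM of Shmt2, Mthfd2, Shmt1 and the erythroid genes Klf1, Gata1 and Hba-a1 minus each gene's mean over 10 libraries (vertical axis), by library (horizontal axis). In α-KG 1 and α-KG 3, Shmt2, Mthfd2, Klf1 and Gata1 lie below 0 and Shmt1 above it, while Hba-a1 is at its highest in α-KG 3.

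Markers of other marrow cells differed between the groups. Of 12 monocyte, 12 macrophage and 12 T and NK cell genes, 8, 5 and 2 rose (edgeR), where 2.39% of all genes tested rose. Summed levels ran from 548 to 749 CPM in water and 750.3 to 1427 in α-KG for the monocyte genes, 50.2 to 97.7 and 105 to 184 CPM for the macrophage genes, and 23.6 to 34.7 and 28.3 to 55.1 CPM for the T and NK cell genes. limma voom called 6, 5 and 0 of them, where it called 1.77% of all genes in either direction. Without water 1, water 2, water 4 or α-KG 4, edgeR called 0 genes of the whole table (3232 to 3672 at an unadjusted p under 0.05). Of the cell cycle genes, 21 of 21 had a log2 fold change below 0, where 7310 of all 15126 genes tested did. Their median was -0.68, with sums of 4019 to 5729 CPM in water and 1430 to 4317 in α-KG. Mki67 weighed most in these sums, with means of 2573 ± 269 CPM in water and 1355 ± 665 with α-KG (SD, n = 5). edgeR and limma voom called 0 of these 21, with 21 at an unadjusted p under 0.05 (27.8% of all genes tested), and DESeq2 called 18 lower (4.31% of all genes). Without α-KG 2 edgeR called 20, where it called 17.4% of all genes, and without water 3 it called 2, where it called 4.15%. The smallest cell cycle sum was that of α-KG 1, the library with the lowest Shmt2 and Mthfd2. The part of these cell types and of cycling cells in the enzyme levels was not tested. Stromal genes gave 2 rises among 7 tested (DESeq2 called 2 higher and 2 lower) and stem and progenitor genes 1 among 10 (edgeR). The skeletal muscle, platelet, neutrophil, granulocyte precursor, plasma cell and B cell lists gave 0 calls (edgeR; 4, 10, 12, 8, 7 and 11 genes tested). Of these, 2, 4, 0, 0, 0 and 0 were at an unadjusted p under 0.05, where 27.8% of all genes tested were. DESeq2 called 2, 2, 0, 0, 0 and 0, where it called 10.4% of all genes. Its muscle calls were Mylpf and Myh4, the latter not tested by edgeR.

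Further along the folate pathway, no gene of the remaining folate cycle and folate transport was called by edgeR. Of 12 measured members, 7 had a log2 fold change above 0 and 5 below, the median was 0.18 and 6 were at an unadjusted p under 0.05 (27.8% of all genes tested). DESeq2 called 2 lower (4.31% of all genes) and limma voom 0. Tyms, the thymidylate synthase gene, had a mean of 36.1 ± 6.96 CPM in water and 21.1 ± 7.47 with α-KG (SD, n = 5), a log2 fold change of -0.78 ± 0.24 SE (adjusted p = 0.0808, edgeR), and was called by DESeq2 (-0.80, adjusted p = 0.0275). Mtr, which encodes the methionine synthase that takes a methyl group from folate, had means of 40.6 ± 2.46 CPM in water and 31.5 ± 4.44 with α-KG (n = 5, SD; -0.37 ± 0.12, adjusted p = 0.0852, edgeR) without overlap of the groups, and was called by DESeq2 (-0.39, adjusted p = 0.0291). It was the only 1 of the 12 without overlap, where 5.65% of all genes tested had none. Ggh, the gene of a lysosomal enzyme that trims folate polyglutamates, was at 0.62 ± 0.24 (adjusted p = 0.128). Without α-KG 2, when edgeR called 17.4% of all genes, those it called here included Tyms (-0.95, adjusted p = 0.0218), Mtr (-0.44, 0.0282), Ggh (0.75, 0.0451) and Mtfmt (0.58, 0.0330). Of the 8 members not tested, Ftcd and Dmgdh had 0 counts in all libraries.

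Of 16 measured genes of glycine cleavage, serine use and transport, 0 were called by edgeR or limma voom, 5 were at an unadjusted p under 0.05 (27.8% of all genes tested) and DESeq2 called 2 lower (4.31% of all genes). The median log2 fold change was -0.15. Slc38a2, which encodes a transporter of small neutral amino acids, was at 128.9 to 146 CPM in water and 99.4 to 109.6 in α-KG, with no overlap of the groups. It was the only 1 of the 16 without overlap, where 5.65% of all genes tested had none. Its log2 fold change was -0.40 ± 0.12 SE (adjusted p = 0.0709 with edgeR and 7.73e-06 with DESeq2). The alanine, serine and cysteine transporter gene Slc1a4 had means of 5.45 ± 1.51 CPM in water and 2.40 ± 1.56 with α-KG (n = 5, SD; -1.18 ± 0.40, adjusted p = 0.101 with edgeR and 0.0398 with DESeq2). Sdsl, which encodes a serine dehydratase-like protein, was at -0.70 ± 0.24 (adjusted p = 0.100). Without α-KG 2, when edgeR called 17.4% of all genes, it called Slc1a4 (-1.63, adjusted p = 0.0180), Sdsl (-0.88, 0.0291), Slc38a2 (-0.41, 0.0415) and Sptlc2 (0.46, 0.0354). Sptlc2 is a subunit gene of the enzyme that joins serine to palmitoyl-CoA.

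Purine synthesis, which takes formyl groups from folate, had 0 of 13 genes called by edgeR, DESeq2 or limma voom. Of these 13, 1 was at an unadjusted p under 0.05 (27.8% of all genes tested), and the median log2 fold change was 0.02. Impdh1, Prps1 and Impdh2 had the smallest p, at 0.34, -0.33 and -0.30 (adjusted p = 0.146, 0.186 and 0.188). The methionine cycle had 0 of 8 called by the same tools, with 2 at an unadjusted p under 0.05 (27.8% of all genes tested) and a median of -0.17. Its smallest p were those of Mtap, which salvages methionine (0.78 ± 0.26 SE, adjusted p = 0.0908), the DNA methyltransferase gene Dnmt1 (-0.39, adjusted p = 0.157) and Amd1 (-0.33, adjusted p = 0.227). Without α-KG 2, when edgeR called 17.4% of all genes, it called only Prps1 (-0.46, adjusted p = 0.0433) and Mtap (0.94, adjusted p = 0.0191) of these lists.

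Phgdh, Psat1, Psph, Shmt2 and Mthfd2 are known targets of ATF4, the transcription factor of the amino acid response. Of 17 measured genes made up of Atf4 and other known targets, 16 had a log2 fold change below 0, where 7310 of all 15126 genes tested did. The median was -0.50, and 0 were called by edgeR, DESeq2 or limma voom. At an unadjusted p under 0.05 (edgeR) the count was 1 of 17, where 27.8% of all genes tested passed. Ddit4, Slc3a2 and Chac1 had the smallest p, at -0.41 ± 0.16, -0.58 ± 0.27 and -0.90 ± 0.43 SE (adjusted p = 0.134, 0.185 and 0.199). The summed level of the list was 1447 to 2599 CPM in water and 611 to 2499 in α-KG. It was lowest in α-KG 1 (611 CPM), then α-KG 3 (1201), α-KG 4 (1315) and water 3 (1447), and was 2499 in α-KG 5. Shmt2 and Mthfd2 were lowest in α-KG 1, α-KG 3 and water 3, and stood at 95.2 and 38.7 CPM in α-KG 5. In α-KG 1, α-KG 3 and water 3, Psph was at 1.91, 2.01 and 1.81 CPM, and elsewhere it was lower only in α-KG 4. Phgdh was at 15.7, 10.9 and 12.3 CPM and Psat1 at 15.4, 13.6 and 13.4 CPM in α-KG 1, α-KG 3 and water 3. The part of ATF4 in these levels was not tested.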

How the data were processed

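Total RNA from mouse bone marrow cells was depleted of ribosomal RNA by RNase H and sequenced on an Illumina NovaSeq, per the labels' protocols. The submitters' processing notes name bcl2fastq, DRAGEN and the build GRCm38, with no versions. The authors deposited expected counts (estimated counts per gene, 10.3% of them not whole), and the sources used here name no quantifier, strand setting or annotation for them. Counts were rounded, scaled by TMM and tested with edgeR 4.0.16 in R 4.3.3 (robust quasi-likelihood F test, α-KG against water, filterByExpr with minimum count 10 and minimum total 15, Benjamini-Hochberg adjustment over 15126 genes, threshold 0.05), after being tested on simulated data. Libraries of 14291364 to 22490118 counts limit the precision that comes from counting mostly for Aldh1l2 and Psph, the scarcest genes. The largest SE of a log2 fold change among the 8 genes tested were those of Mthfd2 (0.35) and Shmt2 (0.34), against 0.20 for Psph. The common biological coefficient of variation was 0.254. CPM are TMM-scaled, and exon lengths and positions are from GENCODE on GRCm38. Within-library log2 ratios were tested over all assignments of the 10 libraries to groups of 5, and pairs of genes by 100000 permutations.

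The genes and the lists were chosen with earlier results of these data known. Named in the text are the 9 enzyme genes, per pathway list the called genes and the 3 with the smallest p, and the 2 genes most like each enzyme gene by Pearson r of log2 CPM (prior count 2), leaving out predicted genes and pseudogenes. Alternatives were limma voom 3.58.1, DESeq2 1.42.0, other scalings and filters, and leaving out each library.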

Additional observations from a re-analysis of the deposited data

Results flagged for a closer look

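Of 30 groups of 5 libraries examined (9 genes and 6 ratios in water and in α-KG), 3 held a library far from the other 4 by Dixon's criterion, where chance gives about 1 in 20. Aldh1l2 stood at 0.281 CPM in water 4 and at 0.0496 to 0.107 CPM in the other water libraries, a difference of a few counts. The log2 ratio of Shmt2 to Shmt1 was 3.85 in water 3, with the rest of water at 4.84 to 5.04. The log2 ratio of Mthfd1l to Mthfd1 was 0.755 in α-KG 5, with the rest of that group at 0.08 to 0.25.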

How the results depend on the processing

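None of the 8 enzyme genes tested passed the threshold under any of the 18 alternatives, which were other scalings and filters, limma voom, DESeq2 and leaving out each library. Shmt2, Mthfd2, Mthfd1, Mthfd1l and Psph stayed below 0 and Shmt1 above 0 in all of them. Phgdh changed sign to -0.025 without a filter on low counts and to -0.011 with DESeq2, and ran from -0.078 to 0.092 with a library left out. Psat1 was at -0.0051 without a filter and ran from -0.028 to 0.10 with a library left out, and the Psat1 to Phgdh ratio from -0.016 to 0.11. Over all genes, 413 calls became 267 with limma voom and 1657 with DESeq2, and 0 to 2683 with a library left out. Leaving out 1 of water 1, water 2, water 4 and α-KG 4 gave 0 calls each (edgeR; 3563, 3414, 3232 and 3672 genes at an unadjusted p under 0.05). For α-KG 1, 2, 3 and 5 the calls were 139, 2683, 37 and 149, and for water 3 and 5 they were 632 and 72. DESeq2 called 2 genes of the folate list, 2 of the glycine and serine list and 18 of the cell cycle list, and upper quartile scaling, no filter and a minimum count of 30 each gave 1 cell cycle call. With a library left out, calls ran from 0 to 5 (folate), 0 to 4 (glycine and serine), 0 to 1 (purine), 0 to 1 (methionine) and 0 to 20 (cell cycle), and the ATF4 list had 0 throughout. The cause of these changes was not tested. Upper quartile scaling moved the median log2 fold change of all genes from 0.02 to 0.08. No paired analysis was possible because the submitters' sample titles carry other numbers in water than in α-KG and no label pairs libraries. Counts of 0 to 6 limit what can be said of Aldh1l2.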
